A study of Homo sapiens with 6 samples.

Results

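The HOX cluster genes were examined in L3.6pl cells, an established human pancreatic cancer line, with and without ARID1A. Members are the rows whose symbol is HOX, a letter from A to D and a number. There were 39 of them among 23273 rows, 11 in HOXA, 10 in HOXB, 9 in HOXC and 9 in HOXD, which lie on chromosomes 7, 17, 12 and 2. The 6 libraries were 3 from parental cells with the genotype WT and 3 from cells with the genotype ARID1A-deficient, titled ARID1Ako. All were grown in MEM with fetal calf serum, and the series describes them as treatment-naïve. The sources used here do not say how ARID1A was disrupted or from how many clones the cells came, and no library restores ARID1A. Loss of ARID1A and any other difference between the cell populations therefore cannot be told apart. Nothing in the labels says that the samples of a group came from separate cultures, so p-values measure the spread between these samples, which may be technical.

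HOX genes encode homeodomain transcription factors that give cells their position along the body axis. In each cluster the gene order along the chromosome matches the order of their expression domains, with low paralog numbers anterior and high numbers posterior. Genes with the same number in different clusters are paralogs. Polycomb complexes keep silent HOX genes repressed, MLL complexes keep active ones on, and retinoic acid induces the low-numbered genes. ARID1A is a large subunit of SWI/SNF, a chromatin remodelling complex whose fly counterpart is known for opposing Polycomb.

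The results turn on the HOXD cluster, where some genes were higher in ARID1Ako cells beside others listed at 0 in nearly every library. The 250 bases before the start of 6 of these genes are therefore shown in chromosome order, from RefSeq, build GRCh38.p14, 5′ to 3′ on the strand of the gene. Capitals mark each CG dinucleotide. HOXD13 and HOXD4 were near 0 in both groups, and HOXD11, HOXD10, HOXD8 and HOXD1 were higher in ARID1Ako cells.
HOXD13, chr2:176092471-176092720, + strand: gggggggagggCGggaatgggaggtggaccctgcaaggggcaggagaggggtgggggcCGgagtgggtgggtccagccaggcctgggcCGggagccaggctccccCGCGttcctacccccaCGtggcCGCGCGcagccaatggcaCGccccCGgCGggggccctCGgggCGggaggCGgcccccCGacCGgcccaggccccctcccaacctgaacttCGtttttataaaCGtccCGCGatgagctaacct
HOXD11, chr2:176107030-176107279, + strand: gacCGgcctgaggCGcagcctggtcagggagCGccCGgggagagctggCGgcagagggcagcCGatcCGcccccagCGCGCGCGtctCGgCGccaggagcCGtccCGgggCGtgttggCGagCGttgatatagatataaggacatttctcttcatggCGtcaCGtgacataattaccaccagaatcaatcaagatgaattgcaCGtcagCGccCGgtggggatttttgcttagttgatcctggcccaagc
HOXD10, chr2:176116528-176116777, + strand: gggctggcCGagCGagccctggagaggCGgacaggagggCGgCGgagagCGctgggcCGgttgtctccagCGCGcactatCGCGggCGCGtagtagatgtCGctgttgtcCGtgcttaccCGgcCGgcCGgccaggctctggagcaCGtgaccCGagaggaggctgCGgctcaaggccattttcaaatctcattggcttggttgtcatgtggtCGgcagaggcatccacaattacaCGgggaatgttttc
HOXD8, chr2:176129455-176129704, + strand: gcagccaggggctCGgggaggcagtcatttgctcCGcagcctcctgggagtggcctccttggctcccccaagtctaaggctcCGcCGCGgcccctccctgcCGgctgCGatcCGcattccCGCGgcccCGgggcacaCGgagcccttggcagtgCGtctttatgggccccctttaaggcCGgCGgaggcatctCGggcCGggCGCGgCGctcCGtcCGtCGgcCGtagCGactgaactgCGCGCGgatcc
HOXD4, chr2:176151300-176151549, + strand: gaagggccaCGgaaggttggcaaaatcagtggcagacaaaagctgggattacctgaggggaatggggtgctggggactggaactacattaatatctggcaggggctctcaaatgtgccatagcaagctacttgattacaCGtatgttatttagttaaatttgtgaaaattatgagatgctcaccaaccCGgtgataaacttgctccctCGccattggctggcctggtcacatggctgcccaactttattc
HOXD1, chr2:176188418-176188667, + strand: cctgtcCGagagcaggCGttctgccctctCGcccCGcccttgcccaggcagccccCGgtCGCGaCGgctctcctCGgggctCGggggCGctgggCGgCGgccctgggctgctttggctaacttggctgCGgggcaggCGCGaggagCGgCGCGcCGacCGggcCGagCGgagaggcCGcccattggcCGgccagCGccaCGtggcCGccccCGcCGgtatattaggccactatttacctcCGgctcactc

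These windows held 21 CG in HOXD13, 23 in HOXD11, 23 in HOXD10, 28 in HOXD8, 4 in HOXD4 and 31 in HOXD1. The table of windows matched 20 of the 39 members with 27 windows, since some genes have several starts, and HOXD9 was not among them. The median was 19 CG in the HOX windows and 11 in all 35116 windows of the table. In these 6 windows the 4 genes that rose held more CG than HOXD13 and HOXD4, by a narrow margin over HOXD13. HOXD13 and HOXD4 were too low to be tested, so they are not known to have stayed unchanged. The windows of HOXD3 and HOXD12, not shown, held 21 and 16 CG. Outside HOXD the contrast did not hold. HOXA11 and HOXC5, which rose, held 11 and 14 CG, and HOXA13, which fell, held 40. HOXA4, HOXA6 and HOXB1, also too low to be tested, held 26, 27 and 7. A link between CG and the differences was not tested. Short motifs were searched on both strands. The letters CCAAT were in 66.7% of the HOX windows against 32.0% of all windows, with a match in HOXD13, HOXD10, HOXD4 and HOXD1 and none in HOXD11 or HOXD8. The letters GCCAT were in 51.9% against 29.4%, TATAAA in 18.5% against 10.7%, TGATNNAT in 11.1% against 6.47%, and TGACTCA in 0 of the 27 HOX windows against 4.20%. An exact form of the direct repeat known as the retinoic acid response element was in 0 of the HOX windows and 1 of all windows. Variants of this repeat were not searched. With only 1 match in 35116 windows, the search cannot show whether HOX windows have or lack such elements.

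Levels are in FPKM, in which the fragments of a gene are divided by transcript length and library size. ARID1A itself measured 11.8, 6.76 and 9.42 FPKM in parental and 3.55, 3.28 and 3.61 FPKM in ARID1Ako libraries, lower in all 3 but above 0. Library sums ranged from 576084 to 792187 FPKM, with the largest in parental library 2, and the sources used here give no fragment totals. The epithelial keratins KRT7, KRT8, KRT18 and KRT19 measured between 709 and 3717 FPKM, and EPCAM 187 to 269 FPKM. MUC1 measured 10.3 to 35.2, SOX9 5.54 to 12.8 and CDH1 3.37 to 6.01 FPKM. CFTR, a ductal chloride channel, was listed at 0 in all 6 libraries. Some markers of other cell types were present. These were endothelial CDH5 (6.22 to 8.09 FPKM) and PECAM1 (1.11 to 2.18), leukocyte CD68 (5.75 to 9.68) and acinar PRSS1 (0.939 to 2.92). The other markers of these types and all islet markers were too low to be tested. The 6 fibroblast markers summed to between 0.0101 and 0.0939 FPKM in parental and 0.214 and 0.303 FPKM in ARID1Ako libraries, none reached the level needed for testing, and the defining markers DCN and LUM were listed at 0 throughout. The tubulin gene TUBB was listed at 0 in every library as well, and since every cell uses tubulin, a 0 may stand for a failed estimate and is given here only as listed.

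Of the 39 HOX genes, 30 had a mean of at least 0.5 FPKM and were tested, and 9 were not. HOXA5, HOXA6, HOXB1, HOXC12, HOXD4 and HOXD12 were listed at 0 in all 6 libraries. HOXA4, HOXD3 and HOXD13 were above 0 in 1 ARID1Ako library each, at 0.0538, 0.0245 and 0.0423 FPKM. The plot of members by library shows that the groups overlapped for 19 of the 30 tested genes. Genes listed at or near 0 lay between expressed neighbours in HOXA, HOXC and HOXD.

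**Figure D1:**
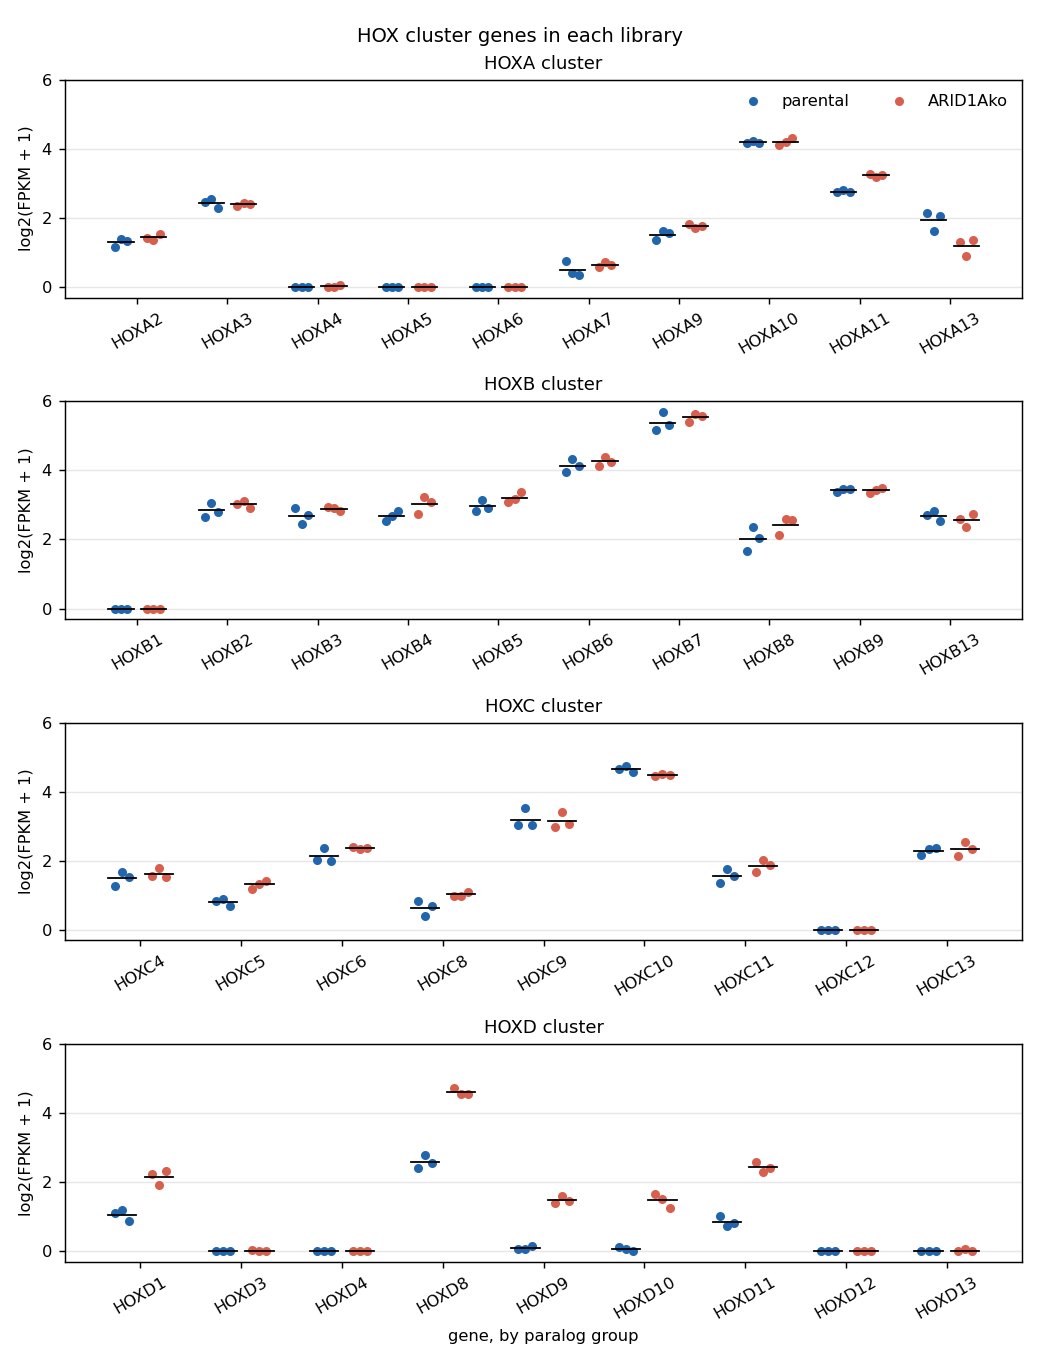
Level of HOX cluster genes in each library as log2(FPKM + 1), by cluster and paralog group; points are libraries, 3 per group, and black lines are means of the log2 values. HOXD1, HOXD8, HOXD9, HOXD10 and HOXD11 are higher in all 3 ARID1Ako libraries, and HOXA13 is lower.

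HOX genes were compared with limma on log2(FPKM + 1), with p-values adjusted by the Benjamini-Hochberg method over all genes tested and a threshold of 0.05. In ARID1Ako cells 7 HOX genes rose (HOXA11, HOXC5, HOXD1, HOXD8, HOXD9, HOXD10 and HOXD11), 1 fell (HOXA13), and 22 did not pass. That is 26.7% of the 30, beside 15.9% of all 12826 genes tested (7.82% higher and 8.11% lower). The 5 HOXD genes among the 7 make up all the tested members of that cluster and each had a log2 fold change of at least 1, a size and direction met with the adjusted p by 2.22% of all genes tested. By contrast, 3 of 25 tested genes of the other clusters passed, or 12.0%, a share no higher than that of all genes. The median log2 fold change was 1.41 in HOXD, 0.08 in HOXA, 0.18 in HOXB, 0.19 in HOXC and -0.01 over all genes tested. HOXD9 and HOXD10 reached the mean needed for testing only through their ARID1Ako values, so they could enter only by differing. The 5 HOXD calls held with every single library left out. The number of higher HOX genes was 10 without parental library 2, 6 without ARID1Ako library 2 and 5 without parental library 3 or ARID1Ako library 3, and the number of lower ones was 0 without any single library other than parental 2.

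**Figure D2:**
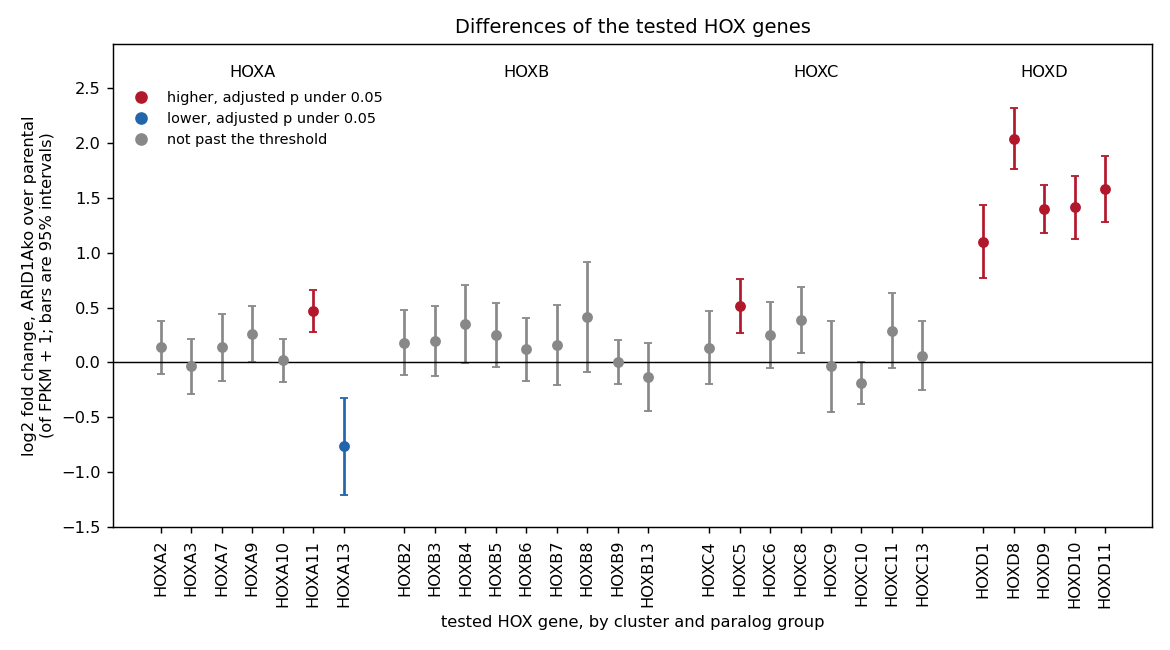
Log2 fold change of FPKM + 1, ARID1Ako over parental, for tested HOX genes by cluster and paralog group, with 95% intervals from limma; colours mark the call. The HOXD values run from 1.10 to 2.04, and those of the other clusters from -0.76 to 0.51.

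HOXD8 had the highest log2 fold change of FPKM + 1 among the HOX genes, although the ratio of means was larger for HOXD9, HOXD10 and HOXD11. This gene, one of the central group of HOX genes, measured 4.28, 5.84 and 4.83 FPKM in parental and 25.3, 22.7 and 22.4 FPKM in ARID1Ako libraries. Every ARID1Ako value was thus several times every parental one. On average HOXD8 rose 4.71-fold, 4.98 ± 0.791 FPKM being the parental and 23.5 ± 1.61 FPKM the ARID1Ako mean (SD, n = 3 each; log2 fold change 2.04, SE 0.12, limma adjusted p = 8.14e-05). In level HOXD8 moved from rank 13 among the 39 members in parental cells to rank 2 in ARID1Ako cells, behind HOXB7. These are averages over many cells, so more cells with the transcript and more transcript per cell cannot be told apart.

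HOXD11, a posterior gene of limb and trunk patterning, measured 1.04, 0.663 and 0.763 FPKM in parental and 5.05, 3.92 and 4.37 FPKM in ARID1Ako libraries. This 5.41-fold increase, 0.822 ± 0.195 against 4.45 ± 0.571 FPKM (SD, n = 3 each), gave a log2 fold change of 1.58 with SE 0.13 (limma adjusted p = 0.000341). HOXD1, the most anterior gene of its cluster, measured 1.17, 1.27 and 0.832 FPKM against 3.68, 2.82 and 3.98 FPKM. HOXD1 rose 3.20-fold (log2 fold change 1.10, SE 0.14, limma adjusted p = 0.00292). Its groups did not overlap either, and its log2 fold change of FPKM + 1 and its ratio of means were the lowest of the 5 tested HOXD genes.

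HOXD9 and HOXD10 were close to 0 in parental cells. HOXD9 measured 0.0389, 0.0497 and 0.114 FPKM there and 1.65, 2.03 and 1.76 FPKM in ARID1Ako libraries (log2 fold change 1.40, SE 0.09, limma adjusted p = 0.000142). HOXD10 measured 0.0818, 0.0522 and 0 FPKM against 2.15, 1.85 and 1.38 FPKM (log2 fold change 1.41, SE 0.12, limma adjusted p = 0.000479). Both genes lie between HOXD11 and HOXD8 on the chromosome. Each reached the mean needed for testing only through its ARID1Ako values and could enter only by differing. An unbroken run of higher genes there was therefore partly set by the filter.

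The depth behind these low values can be estimated if the FPKM value of a gene rises in equal steps, each of 1 fragment. That was assumed here, and it need not hold where fragments are divided between genes or transcripts. The spacing of low rows gave depths of 0.783 and 1.02 for parental libraries 2 and 3 relative to parental library 1, and of 1.28, 0.729 and 0.797 for ARID1Ako libraries 1, 2 and 3. If the smallest depth-scaled value of a gene is 1 fragment, HOXD9 rested on 1, 1 and 3 fragments in parental and 54, 38 and 36 fragments in ARID1Ako libraries. The HOXD10 values likewise correspond to 2, 1 and 0 fragments against 67, 33 and 27 fragments. All of these came out within 0.00212 of a whole number. The ratio per depth was 25.6 for HOXD9 (95% exact interval 10.7 to 80.3) and 42.4 for HOXD10 (95% exact interval 14.2 to 208), and these intervals cover counting error only. The size of either increase is therefore known only roughly. HOXA4, HOXD3 and HOXD13 were above 0 in 1 library each, so this reckoning gives them 1 fragment by construction and does not measure their depth. At levels so low a difference could not be seen.

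HOXD3 and HOXD4, which lie between HOXD8 and HOXD1, were listed at or next to 0, as were HOXD12 and HOXD13 at the other end of the cluster. Whether these 4 genes differed could not be seen. Between HOXD8 and HOXD1 also lies HOXD-AS1, a long noncoding RNA also called HAGLR, which measured 2.70, 2.67 and 2.44 FPKM in parental and 4.65, 5.17 and 5.02 FPKM in ARID1Ako libraries (log2 fold change 0.72, SE 0.09, limma adjusted p = 0.00281). It rose with no overlap between the groups. The library kit does not mark strand, and this RNA overlaps HOXD1 in the RefSeq annotation. Some reads of HOXD1 and HOXD-AS1 therefore cannot be assigned to either.

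Genes around the cluster were followed in RefSeq order, with 20 tested genes on each side. Their median log2 fold change was 0.09 before HOXD13 and 0.03 after HOXD1. On the HOXD13 side 3 of 20 rose and 0 fell, and on the HOXD1 side 5 of 20 rose and 0 fell (7.82% of all tested genes rose). KIAA1715, the nearest tested gene beyond HOXD13, did not pass (log2 fold change -0.13, limma adjusted p = 0.624). Beyond HOXD1, the mitochondrial import gene MTX2 and the RNA-binding protein gene HNRNPA3 rose, with log2 fold changes of 0.41 and 0.59 (limma adjusted p = 0.0395 and 0.00255). HNRNPA3 kept its call with any library left out. The MTX2 call ended with the libraries scaled to 1 median and without any single library other than parental 2 (highest adjusted p = 0.142). The plot of the HOXD neighbourhood also shows NFE2L2, which encodes the oxidative stress regulator NRF2 and was picked after its value was seen, at 1.08 (SE 0.13, limma adjusted p = 0.00192). Apart from NFE2L2, PPP1R1C and the pseudogene H3F3AP4, whose SE was 0.84, no neighbour had a log2 fold change above 1.

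**Figure D3:**
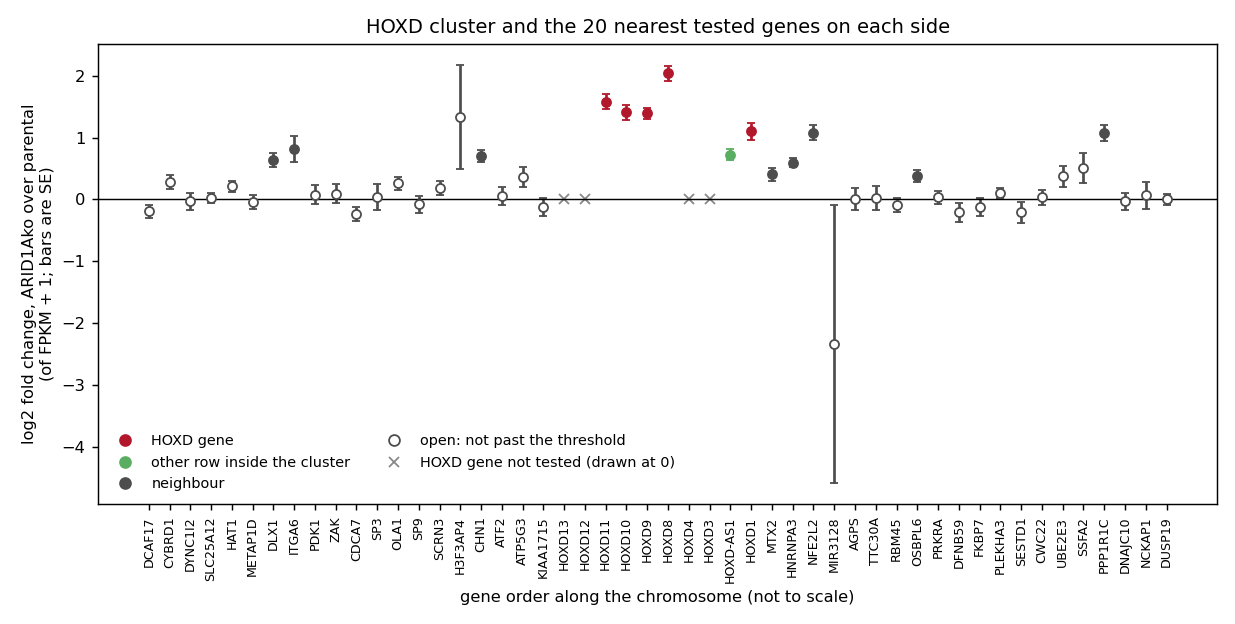
Log2 fold change of FPKM + 1 with SE for the HOXD cluster and 20 tested genes on each side, in gene order without a distance scale; filled points passed the threshold, open ones did not, and crosses are HOXD genes that were not tested. HOXD8 to HOXD11 stand between 1.40 and 2.04, with HOXD9 and HOXD10 tested only through their ARID1Ako values. The medians of the flanks are 0.09 and 0.03.

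The summed level of each cluster puts these differences in proportion. HOXD genes summed to 6.61, 7.88 and 6.54 FPKM in parental and 37.9, 33.3 and 33.9 FPKM in ARID1Ako libraries, or 5.00-fold more on the means. HOXD thus went from 3.71% ± 0.0956 of all HOX signal to 15.3% ± 1.71 (SD, n = 3 each). HOXA summed to 36.8 ± 0.943 and 38.4 ± 1.70 FPKM, HOXB to 100.2 ± 13.2 and 111.9 ± 8.52 FPKM, and HOXC to 45.2 ± 4.69 and 45.0 ± 3.19 FPKM. In these 3 clusters the sums of the groups overlapped. HOXB7 alone made up 40.9% of the parental HOXB sum, HOXC10 54.2% of HOXC, HOXA10 46.8% of HOXA and HOXD8 70.9% of HOXD, so these sums follow a few genes. Over all 39 genes the sum was 189 ± 19.0 FPKM in parental and 230.3 ± 9.07 FPKM in ARID1Ako libraries.

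**Figure D4:**
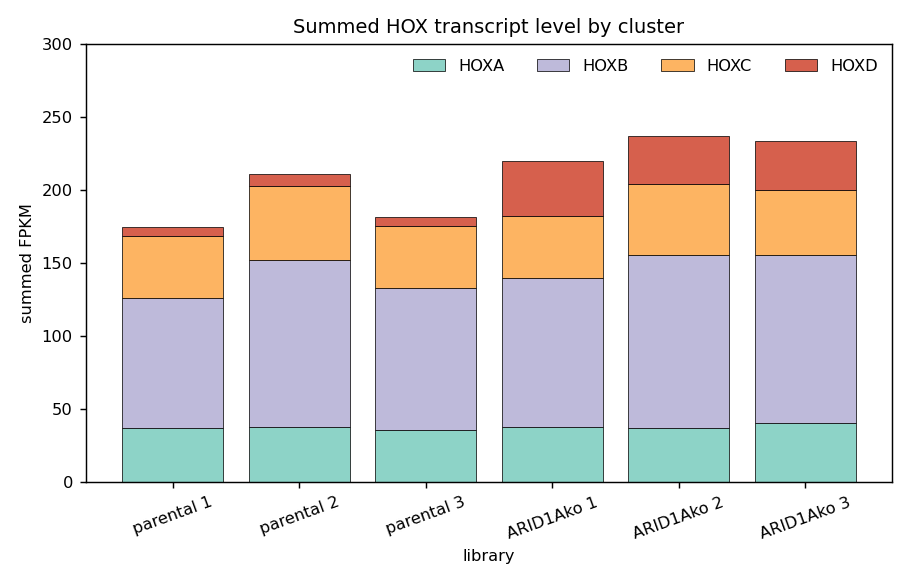
Summed FPKM of the HOX genes in each library, stacked by cluster. The HOXD part is 6.54 to 7.88 FPKM in the parental and 33.3 to 37.9 FPKM in the ARID1Ako columns.

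Outside HOXD, 2 neighbouring genes at the posterior end of HOXA passed, in opposite directions. HOXA11, a gene of limb and uterine development, measured 5.72, 5.97 and 5.73 FPKM in parental and 8.64, 8.17 and 8.41 FPKM in ARID1Ako libraries. It rose 1.45-fold (log2 fold change 0.47, SE 0.08, limma adjusted p = 0.00948), with tight groups that did not overlap. Its call ended without parental library 3 or ARID1Ako library 3 (highest adjusted p = 0.0594). HOXA13, the neighbouring gene, which patterns the digits, hindgut and genital tract, measured 3.46, 2.10 and 3.19 FPKM in parental and 1.49, 0.855 and 1.56 FPKM in ARID1Ako libraries. HOXA13 fell 2.24-fold (log2 fold change -0.76, SE 0.19, limma adjusted p = 0.0357). All its ARID1Ako values lay under the parental ones, but the call ended without any single library other than parental 2 (highest adjusted p = 0.129).

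Noncoding RNAs beside these genes were measurable too. HOXA-AS5, the antisense RNA that starts next to HOXA11 and is now called HOXA11-AS, measured 3.40, 4.10 and 3.52 FPKM in parental and 4.31, 5.14 and 5.92 FPKM in ARID1Ako libraries. Its groups did not overlap, but the difference did not pass (log2 fold change 0.38, limma adjusted p = 0.0932). HOTTIP, a noncoding RNA from beyond HOXA13 and picked here after its values were seen, was too low to be tested. It measured 0.368, 0.211 and 0.252 FPKM in parental and 0.159, 0.101 and 0.0461 FPKM in ARID1Ako libraries, so it lay lower in every ARID1Ako library, as HOXA13 did. HOTAIR, a HOXC noncoding RNA known to bind Polycomb proteins, and HOTAIRM1, from the anterior end of HOXA, did not pass (log2 fold changes 0.37 and -0.25, limma adjusted p = 0.172 and 0.328). In all, 6 of 16 noncoding and read-through rows present were tested and 1 rose, HOXD-AS1, beside 7.82% higher among all genes tested. The MIR196A1 row was listed at 0 in 3 libraries and at 78.3 to 137 FPKM in the other 3, in both groups, and the rows for MIR10A, MIR10B, MIR196A2, MIR196B and MIR615 at 0 in all 6. MicroRNA precursors are very short for such libraries, and nothing was read from these rows.

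The other 6 tested HOXA genes did not pass. HOXA10, its most abundant gene, known for its part in uterine and blood cell development, measured 16.9, 17.9 and 16.9 FPKM in parental and 16.3, 17.4 and 18.8 FPKM in ARID1Ako libraries, with means of 17.2 ± 0.571 and 17.5 ± 1.25 FPKM (SD, n = 3 each). The 95% interval of its log2 fold change, -0.18 to 0.22, leaves room for a small difference in either direction. HOXA2, which patterns the second pharyngeal arch, measured 1.25, 1.65 and 1.55 FPKM against 1.70, 1.60 and 1.88 FPKM. HOXA3, needed for thymus and parathyroid, measured 4.57, 4.82 and 3.86 FPKM against 4.05, 4.41 and 4.33 FPKM. Both genes overlapped between the groups, as did HOXA7, at 0.704, 0.323 and 0.283 FPKM against 0.510, 0.644 and 0.546 FPKM, and the log2 fold changes of all 3 lay between -0.04 and 0.14. HOXA9, a stem cell and leukaemia gene, measured 1.55, 2.07 and 1.94 FPKM against 2.55, 2.28 and 2.39 FPKM. It had no overlap but did not pass (log2 fold change 0.26, limma adjusted p = 0.159). HOXA4, HOXA5 and HOXA6, which lie between HOXA3 and HOXA7, were listed at or near 0 in both groups.

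All 9 tested HOXB genes overlapped between the groups, and limma called 0 of them, and also 0 at an unadjusted p under 0.05, which 29.5% of all genes tested met. HOXB7, a homeobox gene often studied in epithelial tumours, was the most abundant HOX gene of both groups. It measured 34.7, 50.5 and 38.5 FPKM in parental and 41.2, 48.8 and 46.9 FPKM in ARID1Ako libraries (log2 fold change 0.16, 95% interval -0.20 to 0.52). Next in HOXB came HOXB6, with overlapping groups and means of 16.7 ± 2.25 and 18.2 ± 1.76 FPKM (SD, n = 3 each), and HOXB9 at 9.28, 9.98 and 9.96 FPKM against 9.17, 9.86 and 10.3 FPKM. The 95% interval of the HOXB9 log2 fold change ran from -0.20 to 0.20. HOXB8 had the highest HOXB log2 fold change, at 2.14, 4.13 and 3.13 FPKM against 3.39, 5.04 and 4.92 FPKM (log2 fold change 0.41, limma adjusted p = 0.246). Without parental library 2, HOXB8 and HOXB5 passed as higher (limma adjusted p = 0.0325 and 0.0473). HOXB5 measured 6.01, 7.79 and 6.57 FPKM against 7.55, 7.94 and 9.29 FPKM, and HOXB4, a gene of blood stem cells, 4.83, 5.34 and 6.09 FPKM against 5.72, 8.44 and 7.54 FPKM. In both genes the lowest ARID1Ako value lay under the highest parental one. The anterior genes HOXB2 and HOXB3 measured 5.29, 7.29 and 6.00 FPKM against 7.16, 7.57 and 6.57 FPKM and 6.58, 4.43 and 5.52 FPKM against 6.60, 6.55 and 6.01 FPKM, with log2 fold changes of 0.18 and 0.19. The RNA HOXB-AS3 overlaps HOXB5 and HOXB6 in RefSeq, so without strand some reads there cannot be assigned to either. HOXB13, the most posterior HOXB gene and known for its role in prostate, overlapped at 5.48, 6.08 and 4.82 FPKM against 4.97, 4.15 and 5.60 FPKM.

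In HOXC 1 of 8 tested genes rose and 0 fell, or 12.5% called, beside 15.9% called either way among all genes tested. HOXC5 measured 0.773, 0.861 and 0.612 FPKM in parental and 1.29, 1.52 and 1.68 FPKM in ARID1Ako libraries, with no overlap (log2 fold change 0.51, SE 0.10, limma adjusted p = 0.0180). The call ended without parental library 3 or ARID1Ako library 2 or 3 (highest adjusted p = 0.0844). RefSeq gives HOXC4 and HOXC5 the same start window, so fragments may have been divided between them. HOXC4 overlapped at 1.40, 2.23 and 1.88 FPKM against 1.93, 2.45 and 1.91 FPKM. HOXC8 measured 0.785, 0.321 and 0.615 FPKM against 0.985, 0.991 and 1.14 FPKM and did not pass (log2 fold change 0.38, limma adjusted p = 0.0919). HOXC10, the second most abundant HOX gene of parental cells, was lower in every ARID1Ako library, at 24.3, 26.0 and 22.9 FPKM against 21.0, 21.8 and 21.2 FPKM. This difference was small and did not pass (log2 fold change -0.18, limma adjusted p = 0.182). HOXC6 measured 3.06, 4.19 and 2.99 FPKM against 4.33, 4.07 and 4.22 FPKM and passed as higher without parental library 2 (limma adjusted p = 0.0242). HOXC9 measured 7.14, 10.4 and 7.23 FPKM against 6.91, 9.66 and 7.43 FPKM. HOXC11, which HOTAIR overlaps in RefSeq, measured 1.57, 2.42 and 1.96 FPKM against 2.18, 3.04 and 2.69 FPKM, and HOXC13, a gene of hair and nail, 3.46, 4.08 and 4.21 FPKM against 3.44, 4.87 and 4.12 FPKM. All 4 overlapped, with log2 fold changes from -0.04 to 0.29.

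Counted over all 30 tested members, the groups did not overlap for 11, or 36.7%, beside 35.3% of all genes tested. This share is near the background and says nothing particular about HOX genes. A log2 fold change of at least 1 either way, together with the adjusted p, was met by 5 members, all in HOXD. Among all genes tested 3.48% met it. HOXD9 and HOXD10 are in both counts of members, and as given above they could enter only by differing.

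Paralog groups 1, 8, 9, 10 and 11 each hold 1 of the HOXD genes that rose. In group 8, HOXD8 made up 57.5% of the summed FPKM of HOXB8, HOXC8 and HOXD8 in parental cells and 81.0% in ARID1Ako cells, and the sum went from 8.69 ± 1.54 to 28.9 ± 0.655 FPKM (SD, n = 3 each). In group 11, where HOXA11 and HOXD11 both rose, the sum went from 8.61 ± 0.387 to 15.5 ± 0.372 FPKM. HOXD11 held 9.61% of that sum in parental cells and 28.7% in ARID1Ako cells. In group 9 the HOXD9 share reached only 8.23%, since HOXB9 and HOXC9 stayed far more abundant. Group 13, with HOXA13, HOXB13 and HOXC13 as its tested members, summed to 12.3 ± 0.0945 and 10.4 ± 0.790 FPKM. Groups 2, 3, 4, 6 and 7 had no member past the threshold, and in group 5 only HOXC5 passed, and its call was lost without single libraries as given above.

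HOX proteins bind DNA together with TALE homeodomain cofactors of the PBX, MEIS and PKNOX families. The list taken here also held TGIF1 and TGIF2, TALE genes outside these families. Of its 11 genes 8 were tested, 3 fell, 0 rose and 5 did not pass, beside 8.11% lower among all genes tested. The median log2 fold change was -0.27. Among the 5 that did not pass, TGIF1 and TGIF2 lay above 0 (log2 fold changes 0.14 and 0.23) and the rest below 0. MEIS1 measured 3.45, 3.59 and 2.95 FPKM against 2.24, 1.96 and 2.21 FPKM. MEIS2 measured 13.6, 10.1 and 13.6 FPKM against 8.50, 7.41 and 7.77 FPKM. Neither overlapped between groups, with log2 fold changes of -0.46 and -0.59 (limma adjusted p = 0.0247 and 0.0250). Both calls ended without any single library other than parental 2 (highest adjusted p = 0.106 and 0.107). PBX3 did not pass (log2 fold change -0.30, limma adjusted p = 0.0792).

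Regulators of HOX genes came next. Of 29 Polycomb genes 26 were tested, 0 rose and 2 fell, with a median log2 fold change of -0.06, beside 7.82% higher and 8.11% lower among all genes tested. Those that fell were SUZ12, a core subunit of the complex that methylates histone H3 at lysine 27 (log2 fold change -0.68, limma adjusted p = 0.0414), and PHC2, a subunit of the other Polycomb complex (log2 fold change -0.46, limma adjusted p = 0.0370). SUZ12 measured 20.9, 13.5 and 19.2 FPKM in parental and 12.3, 9.52 and 10.2 FPKM in ARID1Ako libraries. PHC2 measured 38.1, 48.3 and 42.4 FPKM against 28.5, 33.1 and 30.9 FPKM. Neither gene overlapped between groups. The SUZ12 call ended without any single library other than parental 2 (highest adjusted p = 0.148), and also with no filter on low values and with a plain variance model. The PHC2 call ended without parental library 3 or any 1 ARID1Ako library (highest adjusted p = 0.135) and with the libraries scaled to 1 median. EED and RBBP4, partners of SUZ12, did not pass (limma adjusted p = 0.0525 and 0.0638). Of 20 tested MLL-complex and demethylase genes, 1 rose and 0 fell (median log2 fold change -0.06). This was MLLT3, part of an elongation complex that MLL fusions recruit, at 2.06, 1.91 and 2.08 FPKM against 3.51, 3.36 and 3.22 FPKM (log2 fold change 0.53, limma adjusted p = 0.00839).

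The retinoic acid pathway was divided. Of 18 genes 12 were tested, 4 rose, 4 fell and 4 did not pass (median log2 fold change -0.34), beside 7.82% higher and 8.11% lower among all genes tested. Among those that rose, ALDH1A1, RARB and CRABP2 reached the mean needed for testing only through their ARID1Ako values, so they could enter only by differing and their count supports nothing. ALDH1A1, which makes retinoic acid, measured 0.151, 0.193 and 0.0888 FPKM in parental and 74.9, 69.0 and 72.3 FPKM in ARID1Ako libraries. CRABP1, a carrier of retinoic acid, measured 1.26, 1.32 and 1.69 FPKM against 22.4, 27.3 and 24.8 FPKM (log2 fold change 3.41, SE 0.11). RARB, a receptor that is itself a retinoic acid target, measured 0.161, 0.390 and 0.299 FPKM against 1.13, 1.22 and 0.985 FPKM (log2 fold change 0.72, limma adjusted p = 0.00449). ALDH1A2, another synthesis enzyme, fell (log2 fold change -1.19, limma adjusted p = 0.00132). The relation of these genes to the HOXD genes was not tested.

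Among ParaHox and related homeobox genes 3 of 13 were tested and 1 rose. GBX2, a gene of the midbrain and hindbrain boundary, measured 1.39, 1.55 and 1.30 FPKM in parental and 2.40, 2.93 and 2.25 FPKM in ARID1Ako libraries (log2 fold change 0.54, limma adjusted p = 0.0171). Its call ended without parental library 3 or ARID1Ako library 1 or 2 (highest adjusted p = 0.0843). CDX2, an intestinal regulator of posterior HOX genes, and MNX1, a gene of pancreas development, did not pass (log2 fold changes 0.06 and -0.12). Of 23 HOX partners and reported targets 16 were tested, 3 rose and 4 fell (median log2 fold change -0.05), beside 15.9% called either way among all genes tested. SHH, a signalling ligand, measured 5.72, 2.31 and 3.50 FPKM in parental and 0.299, 0.392 and 0.299 FPKM in ARID1Ako libraries (log2 fold change -1.80, SE 0.24, limma adjusted p = 0.00348). It was tested only through its parental values, since its ARID1Ako level lay under the minimum mean. VEGFA fell (log2 fold change -0.83), and ITGA5 and CD44, genes of adhesion receptors, rose (log2 fold changes 0.59 and 0.52). Their limma adjusted p was 0.00556 for VEGFA, 0.00437 for ITGA5 and 0.00697 for CD44. The CD44 call ended without parental library 3 (adjusted p = 0.0520).

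**Figure D5:**
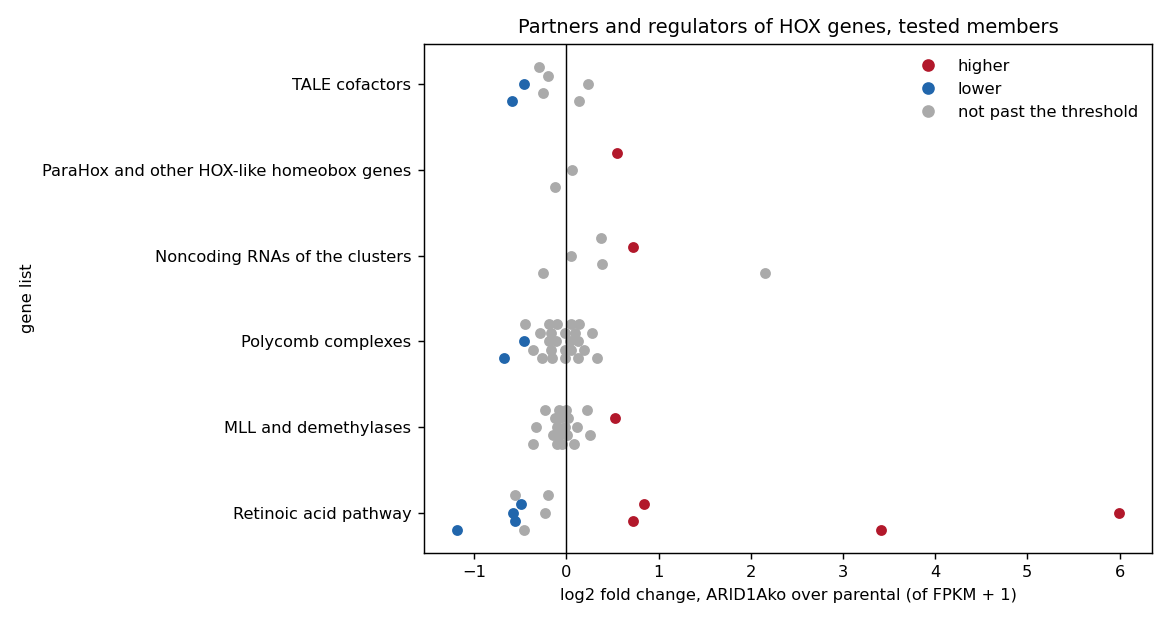
Log2 fold change of FPKM + 1, ARID1Ako over parental, for tested genes of 6 lists; each point is a gene, red rose, blue fell and grey did not pass. Polycomb and MLL genes lie near 0 with 3 genes past the threshold in all, and the retinoic acid genes spread from -1.19 to 6.00.

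The flanks of the other clusters were taken the same way. The median log2 fold change of 20 tested genes was 0.09 before and 0.01 after HOXA, -0.18 before and -0.07 after HOXB, and 0.08 before and 0.06 after HOXC. Before HOXA 3 of 20 rose and 1 fell, and after it 0 rose and 3 fell. Before HOXB 1 rose and 2 fell, and after it 3 rose and 6 fell, with log2 fold changes from -1.64 to 1.40. Before HOXC 1 rose and 0 fell, and after it 2 rose and 0 fell. Of the genes fixed as neighbours of the 4 clusters, 19 were tested, 2 rose and 2 fell, beside 15.9% called either way among all genes tested. Their median log2 fold change was 0.05. Those that fell were CALCOCO2, an autophagy receptor gene next to HOXB (log2 fold change -0.69, limma adjusted p = 0.00400), and HIBADH, a valine breakdown gene next to HOXA (log2 fold change -0.53, limma adjusted p = 0.00687).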

How the data were processed

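Messenger RNA of 6 libraries, 3 per group, was compared, with groups and replicate numbers from the sample titles. The authors deposited 1 table per library in FPKM. The build was GRCh37 (hg19) and the tools Cuffdiff 2.2.1.5, Cuffnorm 2.2.1.2 and TopHat2 2.1.1, per the submitters' processing notes. The sources used here do not state the annotation, filters or scaling. Of 23273 rows, 28 whose symbol had become a date were left out. FPKM cannot enter a count test, so a limma 3.58.1 fit (R 4.3.3) was made on log2(FPKM + 1) with a variance trend and robust moderation, group as the only term, over the 12826 genes averaging 0.5 FPKM or more. Two-sided p-values were adjusted over all of them (Benjamini-Hochberg). Folds are ratios of mean FPKM, and log2 fold changes include the pseudocount of 1, which shrinks those of low genes. The procedure was tested on simulated data. Fragment totals are unknown, so precision rests on the spread of 3 libraries. Gene order came from RefSeq (GRCh38.p14), with a place for 96.7% of tested genes, and sequences are of that build. Members and lists were chosen with earlier results of these data known. The 39 members are described except for an item not reported here, and up to 4 tested genes with the smallest adjusted p are named from each list.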

Additional observations from a re-analysis of the deposited data

How the results depend on the processing

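Alternatives were a pseudocount of 0.1, minimum means of 0.1 and 3 FPKM or none, quantile normalization, median scaling, a plain variance model, a replicate block, and each library left out. HOXD8 kept its direction and call in all 14, and HOXD1, HOXD9, HOXD10 and HOXD11 in the 13 that tested them (highest adjusted p = 0.0193, for HOXD1). With a minimum mean of 3 FPKM, 17 HOX genes were tested, 2 were higher (HOXA11 and HOXD8) and 0 lower. With 1 library left out, 960 to 4113 genes passed in all, 5 to 10 HOX genes were higher and 0 to 1 lower. No tested HOX gene that passed reversed. The log2 ratio of summed FPKM was -0.01 for HOXC and 0.19 without HOXC10, and 2.32 for HOXD and 2.51 without HOXD8. Whether replicate numbers pair the samples was not settled. Deviations of same-numbered libraries from their group means correlated at 0.219, 0.217 and -0.0131 across genes for replicates 1, 2 and 3. Those of differently numbered libraries correlated at -0.267 to 0.0825. Replicates 1 and 2 thus correlated best with their own number, and replicate 3 did not. With the replicate block 4049 genes passed in all and 10 HOX genes were higher, HOXB4, HOXB8 and HOXC8 in addition. Depth limits HOXD9, HOXD10 and the members near 0.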
